A study of Mus musculus with 6 samples.

Results

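The genes described here encode the enzymes that place and remove methyl groups on histone lysines, in gonads of male mouse embryos. They were chosen by symbol, as a list of 37 known histone lysine methyltransferases, core subunits of their complexes and histone lysine demethylases. Of these, 36 were found among the 16862 genes of the deposited table, all 36 passed the filter on low values, and Setd1b was not analysed here. RNA was sequenced from 3 L/H-Pgds-/- gonad libraries, called knockout here, and from 3 wild-type (WT) libraries. By its label the knockout is of both enzymes that make prostaglandin D2, the lipocalin-type (Ptgds) and the hematopoietic one (Hpgds), and "knockout" below means the libraries so labelled. All embryos were male, of strain C57BL/6 and at stage E13.5, and the labels describe the gonads as taken from different littermates. The knockout libraries are numbered 5, 7 and 8 and the WT libraries 1, 3 and 4, as in their titles, which do not say which of them shared a litter. The labels do not describe how the 2 genes were disrupted, and the whole gonad was sequenced, so each value is a mixture of germ cells, Sertoli cells, Leydig cells and interstitial cells. In such a mixture, fewer cells of a type and less RNA per cell cannot be told apart.

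Methyl groups on histone lysines mark chromatin for different uses. Methylation of H3K4, H3K36 and H3K79 is found on active promoters, enhancers and gene bodies, while methylation of H3K9, H3K27 and H4K20 is found mainly on silent or compacted chromatin. Most methyltransferases carry a SET domain, with Dot1l as an exception, and the demethylases are either flavin enzymes of the LSD family or iron enzymes with a Jumonji domain. In the fetal testis these enzymes are of interest because germ cells rebuild much of their chromatin at this stage, and because the H3K9 demethylase Kdm3a is known in mice to act on the sex-determining gene Sry.

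Values are upper-quartile normalised pseudo-counts made by the authors, which are adjusted fractional values and not reads, so the depth behind them is unknown. They summed to between 21657342 and 21846849 in knockout libraries and between 22881124 and 23734462 in WT libraries. The normalisation fixed the upper quartile and not the sum, and why the sums differed between the groups was not tested. A gene was called changed where limma's moderated test on log2(value + 1), adjusted by the Benjamini-Hochberg method over all 15116 genes tested, gave p under 0.05. Log2 changes are knockout minus WT on this scale. As a check of the labels, Ptgds held 15.2, 4.0 and 2.94 in the knockout libraries, against 6560, 8137 and 8712 in WT. Hpgds went against its label, with 87.8, 87.3 and 103.7 in the knockout libraries, against 45.0, 47.5 and 55.0 in WT (log2 0.90, SE 0.21, limma adjusted p = 0.00853, and called with any 1 library left out). After trend removal for transcript length and GC content, described below, it was not called (log2 0.60, adjusted p = 0.0917). The labels do not say which part of Hpgds was deleted, and a value for the whole gene can hold transcript from outside that part, so the loss of Hpgds could not be checked here. Marker genes of germ cells (10), Sertoli cells (9) and fetal Leydig cells (7) all averaged above 10. The summed germ cell markers ranged from 22481 to 39215 in knockout and from 20900 to 34685 in WT. Of the 10, Ddx4 was the 1 called higher, against 17.3% of all genes tested. Its call was lost without knockout library 5 or 7 or WT library 3 or 4. The summed Sertoli cell markers ranged from 86815 to 124938 in knockout and from 127867 to 151155 in WT. The Leydig cell markers ranged from 59575 to 81508 in knockout and from 77847 to 118872 in WT. In each of these lists 2 genes were called lower, against 17.0% of all genes tested. Without WT library 1, 3 Sertoli cell and 0 Leydig cell markers were called lower, against 14.3% of all genes. In that fit the Leydig calls (Hsd3b1 and Ren1) had limma adjusted p of 0.155 and 0.0547. The summed endothelial markers (6) ranged from 7432 to 7779 in knockout and from 5590 to 7686 in WT, with Kdr and Flt1 called higher (log2 0.79 and 1.05) and Emcn lower (log2 -0.35, a call lost without any library other than WT library 1). The summed erythroid markers (5) ranged from 83973 to 123437 in knockout and from 37366 to 140611 in WT, the lowest being WT library 1, and 0 were called. The summed muscle and contractile cell markers (6 genes) ranged from 6823 to 7704 in knockout and from 9496 to 22821 in WT, the highest being WT library 1, and 4 of them were called lower. The part of these cell types in the results below was not tested.

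The histone lysine methylation genes were mostly higher in the knockout. Of the 36 measured genes, 22 were called higher and 0 lower by limma's test, and 14 were not called. At an unadjusted p under 0.05, 25 were higher and 0 lower, against 22.1% and 23.1% of all genes. Over all 15116 genes tested, 17.3% were called higher and 17.0% lower, 34.3% in either direction. The median log2 change was 0.42 for the 36 genes and -0.03 for all genes tested. The rises were modest in size: 12 of the 36 genes were both called higher and at least 1.5-fold, as were 7.87% of all genes. In 29 of the 36 genes the knockout and WT libraries did not overlap, as was the case for 50.3% of all genes (24.7% with knockout above WT). Writers and erasers were both involved, with 12 of 23 methyltransferase complex genes, 9 of 11 demethylases and 1 of the 2 SET domain proteins of other or debated function called higher. With values scaled to equal totals the median of all genes moved up by 0.10 on the log2 scale, and 29 genes were then called higher and 0 lower, against 23.2% and 11.2% of all genes (34.4% together). Without WT library 1, which had the highest muscle marker sum, 20 were called higher and 0 lower, against 15.5% and 14.3% of all genes (29.8% together).

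**Figure D1:**
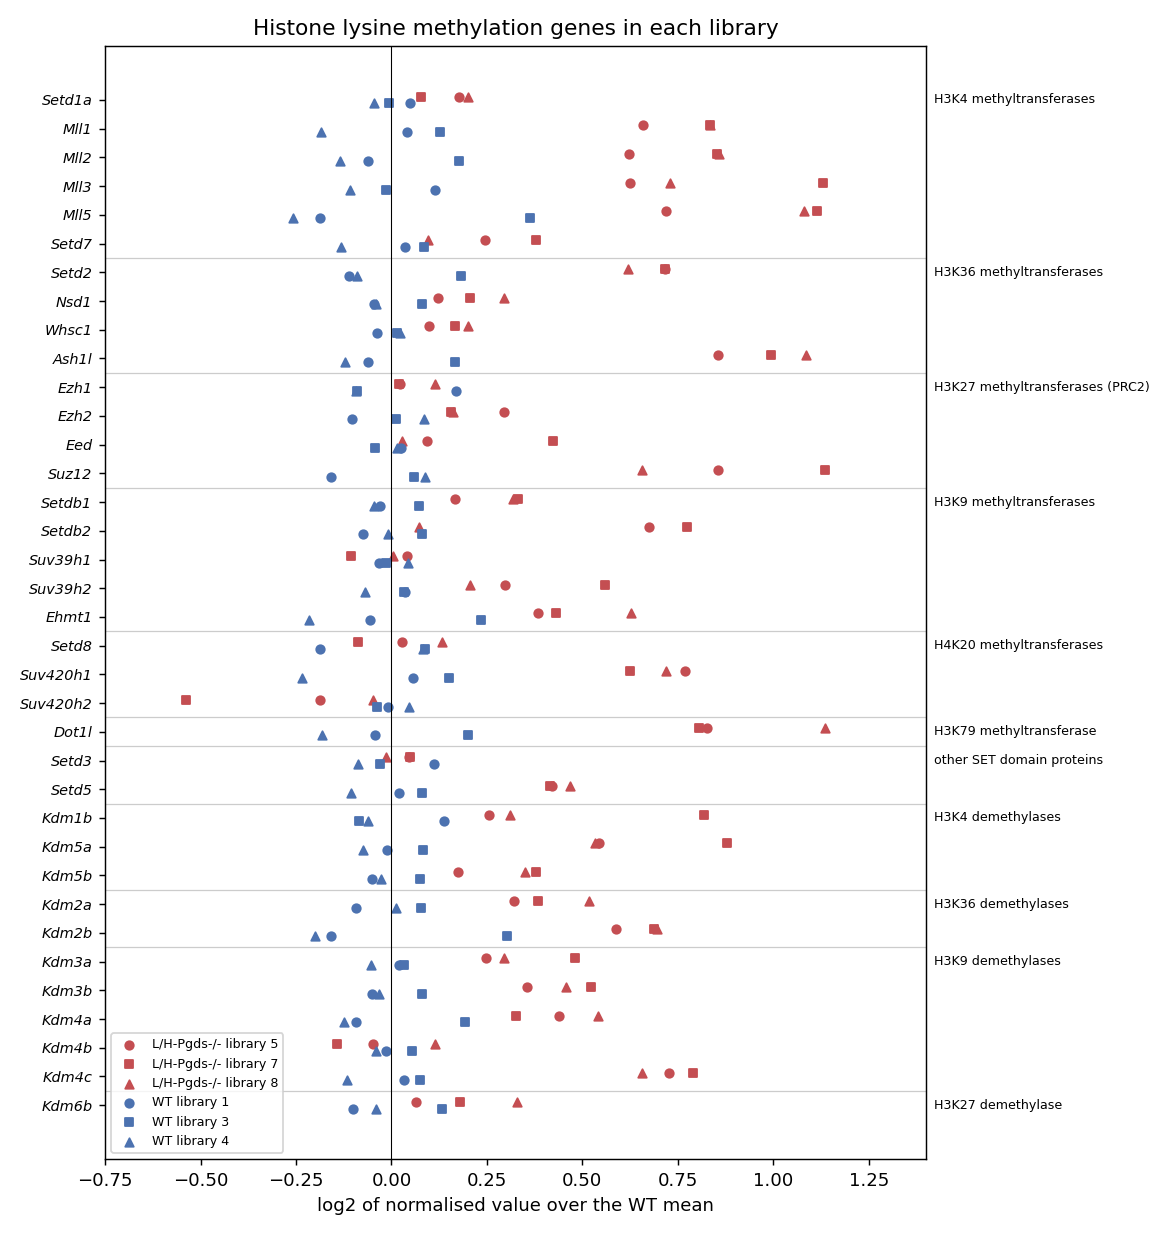
Normalised value of each histone lysine methylation gene in each library, as the log2 of its ratio to the WT mean (horizontal axis), with 1 row per gene and genes grouped by the mark they act on. Red points are the 3 L/H-Pgds-/- libraries and blue points the 3 WT libraries; in 29 of 36 genes the colours do not overlap, and Suv420h2 is the gene whose 3 red points all lie below the blue ones.

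Transcript length moved with these changes. The median transcript length was 6042 nt for the 36 genes and 3121 nt for all genes tested. All genes were divided into 5 equal classes by transcript length. In the longest class 45.5% of genes were called higher, in the next 25.3%, in the middle class 12.6%, in the second shortest 4.53% and in the shortest 0.657%. Of the histone lysine methylation genes, 15 of 20 in the longest class and 7 of 9 in the next were called higher, against 0 of 6 in the middle class and 0 of 1 in the second shortest. Across the 36 genes, log2 length and log2 change had Pearson's r of 0.55 and Spearman's rho of 0.51, given as a description of genes measured in the same 6 libraries. When the trend of the values on transcript length and GC content was removed in each library, 10 of the 36 genes were called higher and 2 lower, against 6.07% and 6.64% of the 14449 genes with a length. Without WT library 1 as well, 11 were called higher and 2 lower, against 5.83% and 6.09% of all genes. With all libraries the median log2 change was then 0.09 for the 36 genes and -0.01 for all genes. Values given below "with the trend removed" come from that fit. The part of length in each change was not tested further.

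**Figure D2:**
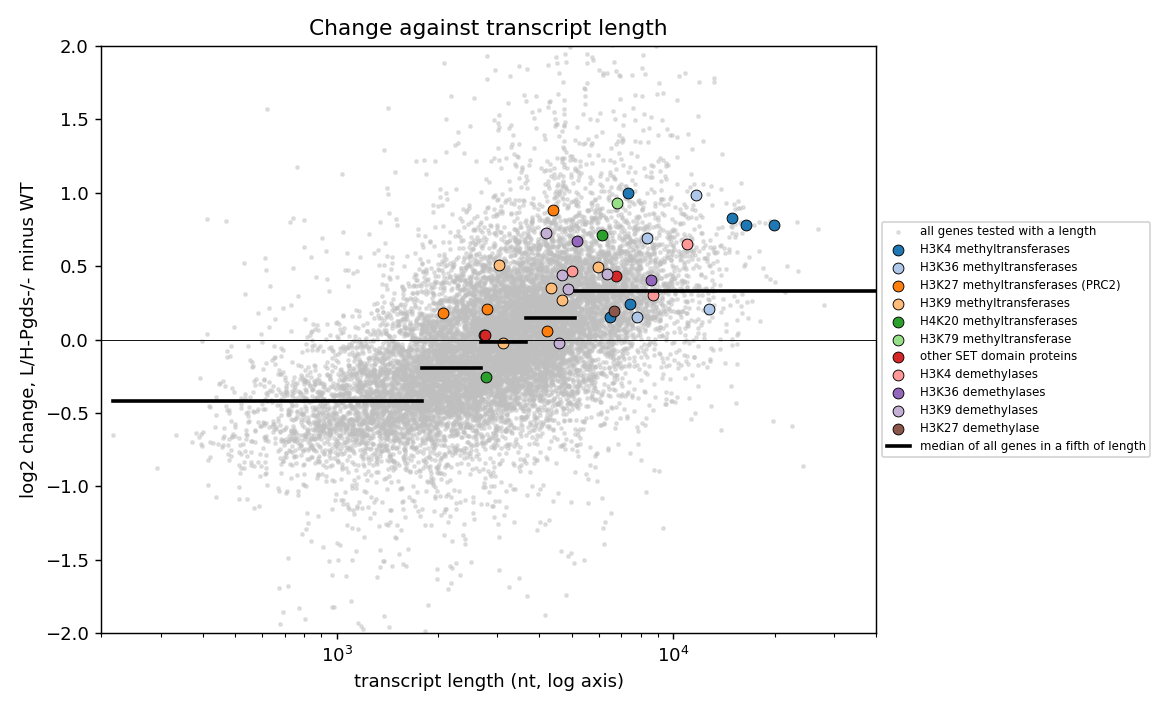
Log2 change, L/H-Pgds-/- minus WT (vertical axis, drawn from -2 to 2), against transcript length in nt on a log axis, for all genes tested with a length (grey) and for the histone lysine methylation genes (coloured by the mark they act on). Black bars are medians of all genes in 5 equal groups by length, which run from -0.42 in the shortest to 0.33 in the longest; the MLL genes, Ash1l, Dot1l and Suz12 lie well above the bar for their length.

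Among the listed H3K4 methyltransferases the 4 MLL family genes on the list rose and Setd1a and Setd7 were not called. Mll5 (Kmt2e in current naming), a SET domain protein that reads H3K4 methylation and has little activity of its own, held 888, 1169 and 1141 in knockout libraries 5, 7 and 8, against 474, 694 and 451 in WT libraries 1, 3 and 4. Every knockout library was above every WT library, with WT library 3 the nearest. Its log2 change was 1.00 (SE 0.17, limma adjusted p = 0.0027), the highest of the 36 genes. Mll3 (Kmt2c), which together with Mll2 (Kmt2d) methylates H3K4 at enhancers, held 1376, 1953 and 1479 in knockout and 965, 883 and 826 in WT (log2 0.83, SE 0.13, adjusted p = 0.0022). Knockout library 7 was the highest for Mll3 and the groups did not overlap. Mll1 (Kmt2a), the founding member of the family and a regulator of Hox genes, averaged 1814 ± 124 in knockout and 1058 ± 115 in WT, and Mll2 averaged 2831 ± 257 in knockout and 1647 ± 191 in WT (SD, n = 3 each). Both rose 1.72-fold, and the ratio of Mll1 to Mll2 overlapped between the groups, at 0.642 ± 0.0151 in knockout and 0.643 ± 0.0396 in WT. Setd1a, the catalytic subunit of a SET1 complex that makes most promoter H3K4 trimethylation, had 3170, 2960 and 3223 in knockout and 2904, 2795 and 2718 in WT. These groups also did not overlap, but the difference was small (log2 0.15, SE 0.08, adjusted p = 0.167). Setd7, an H3K4 monomethyltransferase that also acts on other proteins, had a log2 change of 0.24 (adjusted p = 0.129). With the trend removed, Mll1, Mll2, Mll3 and Mll5 were all still called higher, with log2 changes between 0.37 and 0.65 (adjusted p from 0.0052 to 0.0416). Wbp7, an MLL family gene outside the list, rose less (log2 0.29, limma adjusted p = 0.0359). Its call was lost without knockout library 5 or 8 or WT library 1 or 4, and with the trend removed (log2 0.17, adjusted p = 0.117).

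The listed H3K36 methyltransferases divided into 2 that rose and 2 that were not called. Ash1l, a Trithorax group protein that makes H3K36 dimethylation, held 1197, 1319 and 1406 in knockout, against 634, 743 and 608 in WT. The lowest knockout library was well above the highest WT library (log2 0.98, SE 0.11, limma adjusted p = 0.000969). Setd2, which makes H3K36 trimethylation behind elongating polymerase, averaged 3171 ± 122 in knockout and 1973 ± 231 in WT (SD, n = 3 each; log2 0.69, adjusted p = 0.00179). Whsc1 (Nsd2), an H3K36 dimethyltransferase, held 3962, 4153 and 4255 in knockout and 3605, 3735 and 3758 in WT, and its relative Nsd1 averaged 4489 ± 269 in knockout and 3881 ± 194 in WT. In both the groups did not overlap, and neither was called (log2 0.16 and 0.21, adjusted p = 0.145 and 0.0801). After trend removal these 4 genes parted: Ash1l was called higher (log2 0.45, adjusted p = 0.00968), Setd2 was not called (log2 0.16, adjusted p = 0.177), and Whsc1 and Nsd1 were called lower (log2 -0.44 and -0.29, adjusted p = 0.0102 and 0.0233). The direction of Whsc1 and Nsd1 therefore turned with this step. The transcripts of Whsc1 and Nsd1 are 7786 and 12784 nt long. The deposited spans of Mll1 and Setd2 both lie within that listed for Cdkn2d, which runs over most of chromosome 9.

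In Polycomb repressive complex 2 (PRC2), which methylates H3K27, Suz12 was the 1 called of the 4 listed subunits. Partners outside the list, Aebp2, Mtf2 and Jarid2, were also called higher and are given further below. Suz12, the scaffold that holds the complex together, held 2648, 3214 and 2305 in knockout, against 1310, 1524 and 1556 in WT. Knockout library 7 was the highest and all 3 knockout libraries were above WT (log2 0.89, SE 0.13, limma adjusted p = 0.00179, and 0.47 with adjusted p = 0.00872 with the trend removed). The catalytic subunit Ezh2 held 3414, 3099 and 3114 in knockout and 2592, 2806 and 2950 in WT, a small difference without overlap (log2 0.21, SE 0.09, adjusted p = 0.09). Eed, the subunit that reads methylated H3K27, averaged 1905 ± 290 in knockout and 1667 ± 41.8 in WT (SD, n = 3 each; adjusted p = 0.222), and the alternative catalytic subunit Ezh1 averaged 1089 ± 41.5 in knockout and 1050 ± 112 in WT (adjusted p = 0.687). The libraries of the groups overlapped for Ezh1 and not for Eed, whose knockout library 8 lay just above WT. The ratio of Suz12 to Eed was 1.49, 1.44 and 1.36 in knockout libraries, against 0.772, 0.941 and 0.924 in WT, and that of Suz12 to Ezh2 was 0.776, 1.04 and 0.74 in knockout, against 0.506, 0.543 and 0.527 in WT. Both ratios were higher in every knockout library than in any WT library. The transcripts are 4373 nt long for Suz12, 2067 nt for Eed and 2787 nt for Ezh2. With the trend removed, Eed had a log2 change of 0.27 (limma adjusted p = 0.0934) and Ezh2 one of 0.06 (0.646), against 0.47 for Suz12. The difference between Suz12 and Eed was thus smaller in that fit. These ratios were picked after their values were seen and are given with no test. An exact permutation test of 3 against 3 libraries cannot go below p = 0.1. Kdm6b, the Jumonji enzyme that removes H3K27 methylation, averaged 1860 ± 171 in knockout and 1625 ± 139 in WT, with overlapping libraries (adjusted p = 0.160).

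Among the listed H3K9 methyltransferases, Ehmt1, Suv39h2 and Setdb1 rose by small amounts. Ehmt1 (GLP), the partner of G9a in H3K9 dimethylation, averaged 2431 ± 223 in knockout and 1738 ± 280 in WT (SD, n = 3 each; log2 0.49, SE 0.12, limma adjusted p = 0.0116). Setdb1, which works with Trim28 to silence endogenous retroviruses, held 3357, 3765 and 3735 in knockout and 2933, 3146 and 2902 in WT (log2 0.27, SE 0.08, adjusted p = 0.0310). Suv39h2, an enzyme of H3K9 trimethylation at pericentric repeats, held 810, 973 and 761 in knockout and 676, 675 and 629 in WT (log2 0.35, SE 0.11, adjusted p = 0.0355). In all 3 genes the knockout libraries lay above the WT libraries. G9a itself (Ehmt2), which is outside the list, held 7162, 6728 and 8253 in knockout and 9552, 8411 and 8523 in WT. Its knockout libraries all lay below WT, and it was not called (log2 -0.26, SE 0.10, limma adjusted p = 0.0703, and -0.14 with adjusted p = 0.257 after trend removal). The relative of Suv39h2 on the X chromosome, Suv39h1, held 2395, 2163 and 2334 in knockout and 2278, 2305 and 2401 in WT, with overlapping libraries (log2 -0.02, adjusted p = 0.868). Setdb2, a poorly expressed relative of Setdb1, averaged 266 ± 64.7 in knockout and 183 ± 9.95 in WT (adjusted p = 0.063), with overlapping libraries. Trend removal left none of the 5 called (Setdb1, Setdb2, Suv39h1, Suv39h2 and Ehmt1; log2 from -0.05 to 0.28, limma adjusted p from 0.0945 to 0.869), and the direction of Suv39h2 turned (log2 -0.03). The deposited span of Suv39h2 shares 5303 bases with Dclre1c, whose reads cannot be told apart there unless strand was used in counting, which the sources used here do not say.

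Of the 3 H4K20 methyltransferases, Suv420h1 was called higher and Suv420h2 and Setd8 were not called. Suv420h1 (Kmt5b) and Suv420h2 (Kmt5c) carry out the same step, turning monomethylated H4K20 into the di- and trimethylated forms. Suv420h1 held 1603, 1452 and 1549 in knockout, against 980, 1045 and 800 in WT, so that all knockout libraries were above WT (log2 0.71, SE 0.11, limma adjusted p = 0.00211). Suv420h2 held 2486, 1947 and 2735 in knockout and 2809, 2756 and 2920 in WT, so that all knockout libraries were below WT, narrowly for library 8 (log2 -0.26, SE 0.12, unadjusted p = 0.0553, adjusted by limma over all genes to 0.12). It was the 1 gene of the 36 whose knockout libraries all lay below WT, and it was called lower when knockout library 8 was left out (log2 -0.36, adjusted p = 0.0445). The ratio of Suv420h1 to Suv420h2 was 0.645, 0.745 and 0.566 in knockout libraries and 0.349, 0.379 and 0.274 in WT. The transcripts differ in length and composition, with 6130 nt and 47.0% GC for Suv420h1 and 2774 nt and 60.0% GC for Suv420h2. After trend removal the log2 changes were 0.32 for Suv420h1 (adjusted p = 0.0556, and 0.0324 without WT library 1 as well) and 0.03 for Suv420h2 (adjusted p = 0.851). Setd8 (Kmt5a), which places the first methyl group on H4K20, averaged 2340 ± 178 in knockout and 2297 ± 243 in WT (SD, n = 3 each; adjusted p = 0.845).

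**Figure D3:**
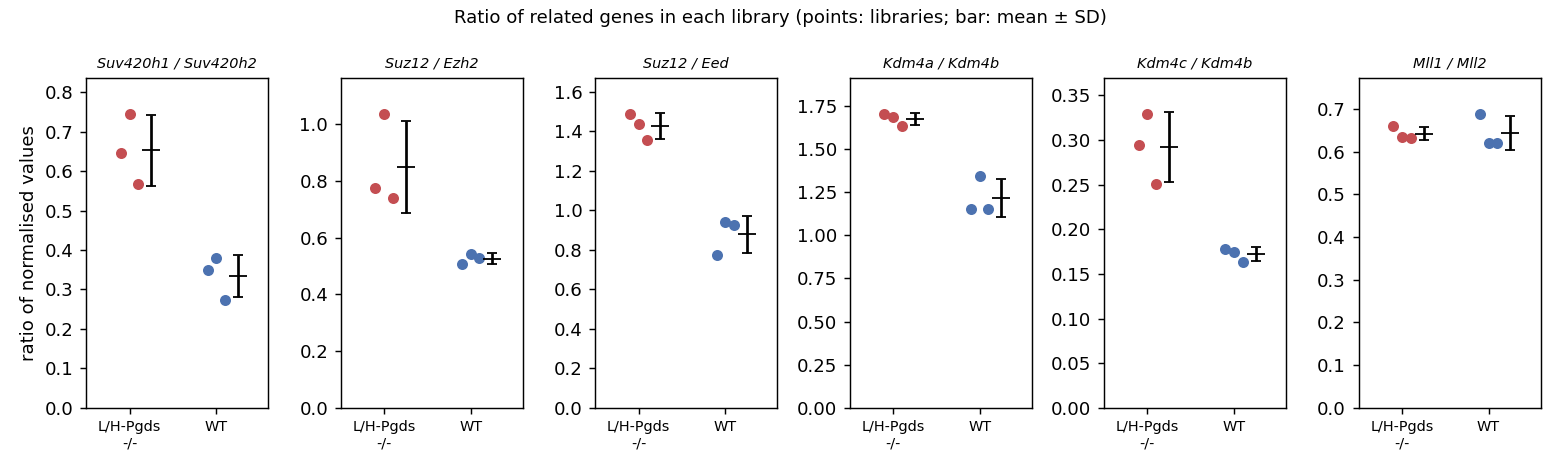
Ratio of the normalised values of related genes in each library (points), with mean ± SD beside them, L/H-Pgds-/- left and WT right in each panel, and each vertical axis starting at 0. The ratios of Suv420h1 to Suv420h2, Suz12 to Ezh2, Suz12 to Eed, Kdm4a to Kdm4b and Kdm4c to Kdm4b are apart in the groups, and that of Mll1 to Mll2 overlaps.

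Promoter sequences are printed for 4 genes from these contrasts, namely both Suv420 genes, Suz12 and Dot1l, which are among the genes that stood most apart from their relatives or changed most: Suv420h1, Suz12 and Dot1l rose, and Suv420h2 was not called. Each is the 250 bases before the annotated start (RefSeq, GRCm38.p6), with GC boxes (GGGCGG) and CCAAT boxes (CCAAT) on either strand in capitals.
Suv420h1 (chr19:3767171-3767420, plus strand): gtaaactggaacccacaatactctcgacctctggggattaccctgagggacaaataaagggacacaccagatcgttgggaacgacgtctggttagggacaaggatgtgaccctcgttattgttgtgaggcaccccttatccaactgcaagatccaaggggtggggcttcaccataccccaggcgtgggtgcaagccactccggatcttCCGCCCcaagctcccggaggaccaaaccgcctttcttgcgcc
Suv420h2 (chr7:4739877-4740126, plus strand): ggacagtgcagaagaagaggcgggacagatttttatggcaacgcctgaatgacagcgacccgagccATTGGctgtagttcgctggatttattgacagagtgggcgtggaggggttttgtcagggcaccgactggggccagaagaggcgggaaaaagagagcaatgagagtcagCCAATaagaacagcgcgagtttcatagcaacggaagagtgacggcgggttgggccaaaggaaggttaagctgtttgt
Suz12 (chr11:79992856-79993105, plus strand): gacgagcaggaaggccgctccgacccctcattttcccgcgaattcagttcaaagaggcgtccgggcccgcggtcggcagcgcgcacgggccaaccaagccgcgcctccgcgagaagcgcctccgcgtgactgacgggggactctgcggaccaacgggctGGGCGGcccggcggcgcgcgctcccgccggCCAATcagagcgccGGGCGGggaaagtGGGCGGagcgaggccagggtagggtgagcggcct
Dot1l (chr10:80754953-80755202, plus strand): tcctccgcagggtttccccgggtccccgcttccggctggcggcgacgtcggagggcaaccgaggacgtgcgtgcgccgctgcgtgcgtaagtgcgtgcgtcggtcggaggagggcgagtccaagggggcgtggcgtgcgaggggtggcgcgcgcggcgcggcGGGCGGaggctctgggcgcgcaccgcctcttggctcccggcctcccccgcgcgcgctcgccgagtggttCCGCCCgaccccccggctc
The Dot1l and Suz12 promoters are 78.4% and 73.6% GC, with 44 and 37 CG dinucleotides, and the Suv420h1 and Suv420h2 promoters are 56.4% and 53.6% GC, with 11 and 13. The Suz12 window holds 3 GC boxes and 1 CCAAT box, that of Dot1l 2 GC boxes, that of Suv420h1 1 GC box and that of Suv420h2 2 CCAAT boxes. Of the 36 genes, 27 were matched to a promoter, and 16 of these held a GC box and 10 a CCAAT box, against 32.9% and 34.5% of 27025 promoters. None of the 27 held a TATA box (TATAAA), against 13% of all promoters. The median promoter of the 27 genes was 62% GC, against 52% for all. The 27025 promoters are those of every gene listed, and not only of genes expressed in these gonads, so the 2 sets are unlike. These matches describe the letters in the window and were not tested against expression. Suv420h1 has 2 annotated starts, of which the first listed is shown. On mm9, the build of the deposited table, Suv420h1 spans chromosome 19 from 3767421 to 3818303, Suv420h2 chromosome 7 from 4691729 to 4699116, Suz12 chromosome 11 from 79806608 to 79847625 and Dot1l chromosome 10 from 80217951 to 80257092.

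Dot1l, the only known H3K79 methyltransferase, held 1125, 1109 and 1394 in knockout libraries, against 615, 729 and 559 in WT. All knockout libraries were above WT, with library 8 the highest (log2 0.93, SE 0.13, limma adjusted p = 0.00174). Its change was little altered with the trend removed (log2 0.83, SE 0.09, adjusted p = 0.00358), the highest of the 36 genes in that fit. Of the SET domain proteins of other or debated function, Setd5, mutated in intellectual disability, averaged 5242 ± 105 in knockout and 3879 ± 251 in WT (SD, n = 3 each; log2 0.44, adjusted p = 0.00386, and 0.11 with adjusted p = 0.267 with the trend removed). Setd3, now known as a histidine methyltransferase of actin, held 2092, 2093 and 2005 in knockout and 2188, 1983 and 1904 in WT. The libraries overlapped and the gene was not called (adjusted p = 0.813).

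The 3 listed H3K4 demethylases were all called higher, against 17.3% of all genes tested. Of their relatives outside the list, given further below, Kdm5d was called higher and Kdm1a and Kdm5c were not called. Kdm5a, an H3K4 trimethyl demethylase first known as a retinoblastoma partner, averaged 2353 ± 334 in knockout and 1489 ± 81.0 in WT (SD, n = 3 each; log2 0.65, SE 0.11, limma adjusted p = 0.00247). Kdm5b, its relative, held 5332, 6144 and 6025 in knockout and 4562, 4978 and 4634 in WT (log2 0.30, SE 0.09, adjusted p = 0.0243). Kdm1b (LSD2), known in mice for its role in setting maternal imprints in oocytes, averaged 634 ± 144 in knockout and 453 ± 39.3 in WT (log2 0.46, SE 0.16, adjusted p = 0.0412). Knockout libraries were above WT libraries in all 3 listed genes. Knockout library 7 held Kdm1b at 799 and the other knockout libraries at 541 and 561, and leaving it out gave a log2 change of 0.29 (adjusted p = 0.106). After trend removal Kdm5a and Kdm1b both had log2 changes of 0.07 (adjusted p = 0.552 and 0.802), and that of Kdm5b turned to -0.14 (adjusted p = 0.168), so that none of the 3 was called.

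Both listed H3K36 demethylases rose. Kdm2a held 2634, 2752 and 3016 in knockout, against 1976, 2224 and 2124 in WT (log2 0.41, SE 0.09, limma adjusted p = 0.0069). Kdm2b, which binds unmethylated CpG islands and recruits a Polycomb complex there, averaged 706 ± 28.5 in knockout and 448 ± 90.3 in WT (SD, n = 3 each; log2 0.67, SE 0.14, adjusted p = 0.0058). In both genes the groups did not overlap. After trend removal Kdm2b was still called higher (log2 0.52, adjusted p = 0.022) and Kdm2a was not (log2 -0.01, adjusted p = 0.944).

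Of the 5 listed H3K9 demethylases, 4 rose and Kdm4b was not called. Kdm4c held 449, 469 and 428 in knockout, against 278, 286 and 250 in WT (log2 0.72, SE 0.12, limma adjusted p = 0.00245). Kdm4a held 2595, 2400 and 2786 in knockout and 1798, 2191 and 1758 in WT (log2 0.44, SE 0.11, adjusted p = 0.0103). Kdm4a, Kdm4b and Kdm4c are related enzymes that remove trimethylation from H3K9 and H3K36. The third of them, Kdm4b, averaged 1550 ± 142 in knockout and 1574 ± 54.0 in WT, with overlapping libraries (SD, n = 3 each; log2 -0.02, adjusted p = 0.856). The ratio of Kdm4a to Kdm4b was 1.67 ± 0.0356 in knockout and 1.21 ± 0.109 in WT, and that of Kdm4c to Kdm4b was 0.292 ± 0.0393 in knockout and 0.172 ± 0.00766 in WT, neither overlapping between the groups. Kdm3a, which removes mono- and dimethylation from H3K9 and acts on Sry, held 2321, 2729 and 2401 in knockout and 1983, 2000 and 1887 in WT (log2 0.34, SE 0.09, adjusted p = 0.0152). Its relative Kdm3b averaged 2804 ± 161 in knockout and 2057 ± 102 in WT (log2 0.45, adjusted p = 0.00391). After trend removal Kdm4a and Kdm4c were still called higher (log2 0.36 and 0.38, adjusted p = 0.0139 and 0.0422), Kdm3b was not (0.25, adjusted p = 0.0563), and Kdm3a had a log2 change of -0.02 (adjusted p = 0.907).

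**Figure D4:**
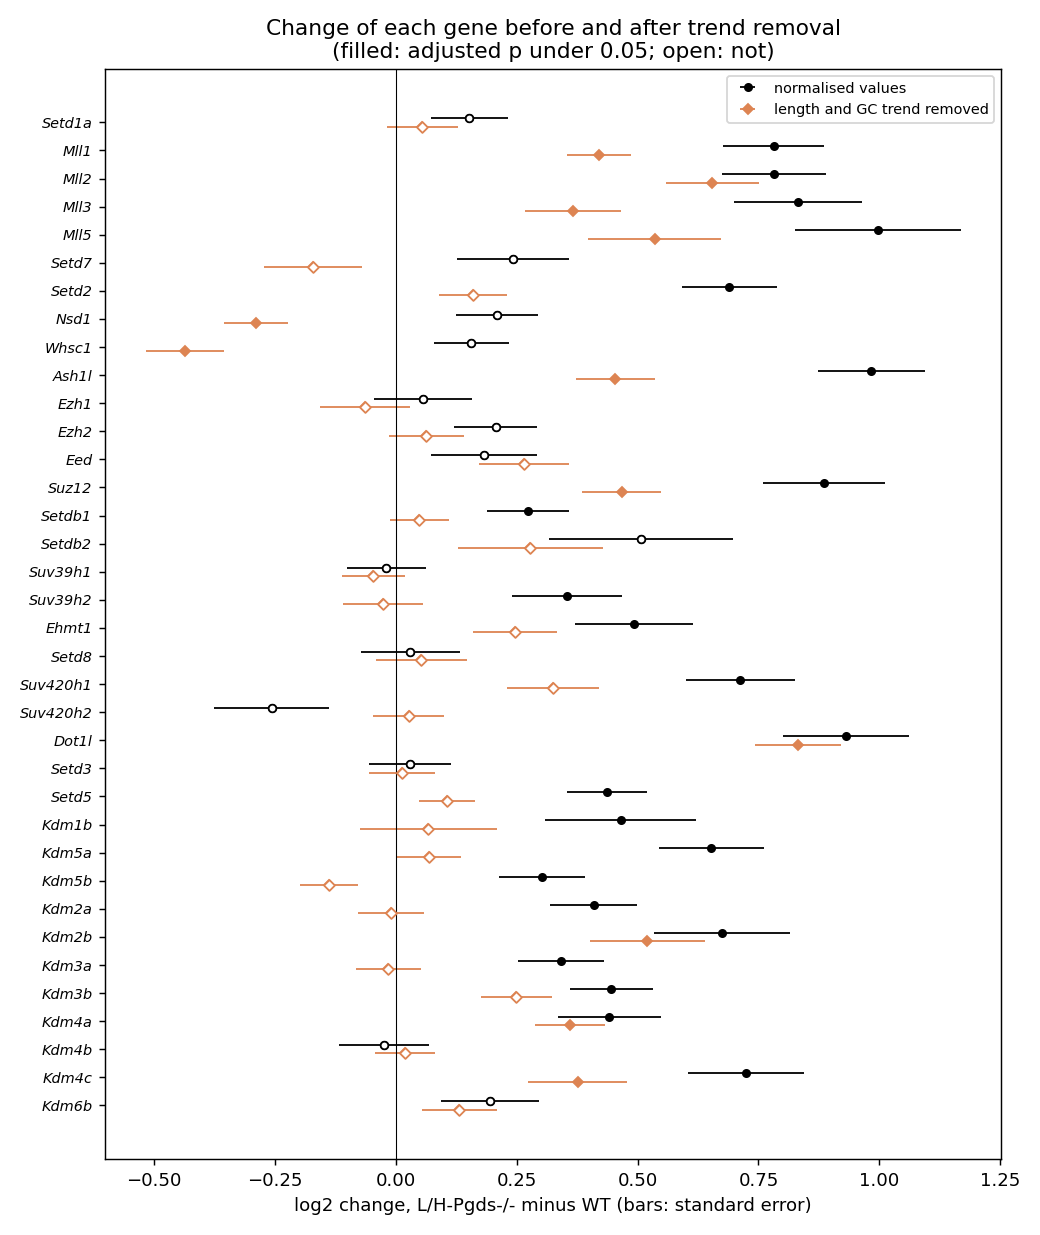
Log2 change of each histone lysine methylation gene, L/H-Pgds-/- minus WT, with its standard error, from the normalised values (black) and after trend removal (orange); filled symbols are past an adjusted p of 0.05 and open ones are not. Of 22 filled black symbols, 10 have a filled orange symbol on the same side, and Nsd1 and Whsc1 have filled orange symbols below 0.

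In all, the 10 genes called higher both ways were Mll1, Mll2, Mll3, Mll5, Ash1l, Suz12, Dot1l, Kdm2b, Kdm4a and Kdm4c, 7 of the methyltransferase complexes and 3 demethylases. Of the 22 rises, 15 were called when any 1 library was left out. The other 7 calls, those of Setdb1, Suv39h2, Ehmt1, Kdm1b, Kdm5b, Kdm3a and Kdm4a, were each lost without WT library 4 (adjusted p from 0.0521 to 0.12). Those of Ehmt1, Kdm3a and Kdm4a were lost in that case alone. Kdm5b and Setdb1 were also lost without knockout library 7 or 8 or WT library 1, Suv39h2 without knockout library 5 or 7 or WT library 3, and Kdm1b without knockout library 7 or WT library 3 (adjusted p from 0.0501 to 0.106). Within WT, library 3 was the highest for 24 of the 36 genes and library 4 the lowest for 21, and within knockout, library 8 was the highest for 17 genes and library 7 for 16. Neither this order nor the calls kept with any 1 library left out were counted over all genes. Of all genes tested, 17.3% were called higher with all libraries and 10.8% without WT library 4.

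Divided by transcript length, the levels of the 36 genes ran from 87.8 for Setdb2 to 1151 for Ezh2 in knockout, and from 56.8 for Ash1l to 1020 for Suv420h2 in WT. Ezh2 stood at 1151 ± 63.8 per kilobase in knockout and 998 ± 64.6 in WT (SD, n = 3 each). Suv420h2 stood at 861 ± 145 in knockout and 1020 ± 30.2 in WT, Eed at 922 ± 140 in knockout and 807 ± 20.2 in WT, and Setd8 at 854 ± 64.9 in knockout and 839 ± 88.7 in WT. Within knockout these last 3 did not differ beyond their spread. At the other end, Ash1l stood at 112 ± 9.01 per kilobase in knockout and 56.8 ± 6.17 in WT, and Mll3 at 107 ± 20.6 in knockout and 59.6 ± 4.67 in WT. Mll1 stood at 110 ± 7.54 in knockout and 64.2 ± 6.95 in WT, and Kdm4c at 107 ± 4.94 in knockout and 64.7 ± 4.44 in WT. Within knockout these 4 did not differ beyond their spread. Setdb2, at 87.8 ± 21.3 in knockout and 60.4 ± 3.28 in WT, and Setd7, at 89.7 ± 8.82 in knockout and 75.7 ± 5.86 in WT, were the lowest in knockout, and neither was called. Level per kilobase and log2 change had a Spearman's rho of -0.66 across the 36 genes, a description in which transcript length is shared by both measures. The highest of the 36 genes per kilobase within each group of enzymes was taken by the mean over all 6 libraries. Among methyltransferases it was Setd1a for H3K4, Whsc1 for H3K36, Ezh2 for H3K27, Suv39h1 for H3K9 and Suv420h2 for H4K20. Among demethylases it was Kdm5b for H3K4, Kdm2a for H3K36 and Kdm4a for H3K9, and among the other SET domain proteins it was Setd3. Some genes outside the 36 stood higher, such as Ehmt2 at 2013 (Suv39h1 at 742) and Kdm1a at 1604 (Kdm5b at 606) per kilobase. In knockout libraries alone Setdb1 stood above Suv39h1 (777 and 737 per kilobase) and Setd5 above Setd3 (776 and 749), while in WT libraries alone Suv39h1 stood above Setdb1 (747 and 643) and Setd3 above Setd5 (735 and 574). With the median in place of the longest transcript, the highest gene was the same in 5 of 9 groups.

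Related enzymes and partners of these complexes, 90 genes tested from a wider list, had 32 called higher and 9 lower, and 13 and 4 after trend removal. Over all genes these shares were 17.3% higher and 17.0% lower, and 6.07% and 6.64% after trend removal. Of 12 other lysine demethylases, 7 rose and 0 fell, with Jmjd1c, a relative of the Kdm3 enzymes, at 1443 ± 178 in knockout and 672 ± 109 in WT (SD, n = 3 each; log2 1.11, limma adjusted p = 0.00134, and 0.55 with adjusted p = 0.011 with the trend removed). Of 23 other lysine methyltransferases, 5 rose and 3 fell, shares near those over all genes, and 2 rose and 3 fell without WT library 1. Among them were Prdm10 (log2 1.83, adjusted p = 0.00624), Prdm1, a repressor essential for germ cell founding (0.52, adjusted p = 0.0219, and 0.058 without knockout library 7), and Smyd3 (-0.44, adjusted p = 0.00858). Prdm10 was low, at 55.1, 47.5 and 85.2 in knockout and 11.5, 29.4 and 12.7 in WT, where the filter was 10. After trend removal Prdm10 and Smyd3 were still called (log2 1.43 and -0.85, adjusted p = 0.0404 and 0.00358) and Prdm1 was not (0.16, adjusted p = 0.485). Without WT library 1 as well, Prdm10 was not called either (adjusted p = 0.0531). Of 11 MLL and SET1 complex partners, 4 rose and 2 fell. Psip1, which tethers MLL complexes to chromatin, averaged 4786 ± 655 in knockout and 2903 ± 109 in WT (log2 0.71, adjusted p = 0.00185), and Ncoa6 and Paxip1, subunits of the Mll2 and Mll3 complexes, had log2 changes of 0.51 and 0.47 (adjusted p = 0.00635 and 0.00413). After trend removal Psip1 was the 1 partner of the 11 called (log2 0.45, adjusted p = 0.0046), and Ncoa6 and Paxip1 were not (0.17 and 0.20, adjusted p = 0.236 and 0.0896). The shared core of these complexes, named after its values were seen, held 1 called gene. Dpy30 averaged 1728 ± 162 in knockout and 2238 ± 210 in WT (log2 -0.37, adjusted p = 0.0194), a call lost without knockout library 8 (0.0632), without WT library 4 (0.0892) and after trend removal (0.174). Wdr5, Ash2l and Rbbp5 were not called (log2 -0.16, -0.08 and 0.22).

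For the short lists that follow, the shares over all genes were again 17.3% higher and 17.0% lower, and 6.07% and 6.64% after trend removal. Of 8 PRC2 partners, 3 rose and 0 fell. Aebp2, an accessory subunit that stimulates the enzyme, averaged 291 ± 77.8 in knockout and 103 ± 28.7 in WT (SD, n = 3 each; log2 1.49, SE 0.24, limma adjusted p = 0.00222). Mtf2, which directs PRC2 to CpG islands, had a log2 change of 0.65 (adjusted p = 0.00879), and Jarid2 one of 0.36 (adjusted p = 0.0137, and 0.0567 without WT library 1). After trend removal Aebp2 was the 1 of the 8 called higher (log2 0.95, adjusted p = 0.0377), with Mtf2 at 0.18 (adjusted p = 0.19) and Jarid2 at 0.04 (adjusted p = 0.747). The 1 called lower was Rbbp4 (log2 -0.41, adjusted p = 0.0143), which was not called before trend removal (log2 -0.04, adjusted p = 0.772). Of 10 H3K9 pathway partners, 4 rose and 0 fell. The heterochromatin protein genes Cbx1 and Cbx3, which read H3K9 methylation, averaged 1673 ± 73.1 and 449 ± 27.1 in knockout, against 1031 ± 151 and 283 ± 39.0 in WT (log2 0.71 and 0.67, adjusted p = 0.0021 and 0.00504). Their transcripts are short, 1824 and 1889 nt, and both were still called higher with the trend removed (log2 0.83 and 0.61, adjusted p = 0.00438 and 0.0258). The related gene Cbx5, with a transcript of 8803 nt, averaged 9467 in knockout and 8274 in WT and was not called (log2 0.19, adjusted p = 0.0825). With the trend removed Cbx5 was called lower (log2 -0.39, adjusted p = 0.0115). In that fit 2 of the 10 partners were called higher and 1 lower. Atf7ip, a Setdb1 partner, had a log2 change of 0.57 (adjusted p = 0.00358), and of 0.14 after trend removal (adjusted p = 0.283). Of 7 Dot1l partners, 4 rose and 0 fell, with Aff4 at 0.74, Mllt10 at 0.65 and Aff1 at 0.42 on the log2 scale (adjusted p = 0.00173, 0.00242 and 0.0185, that of Aff1 being 0.0688 without WT library 4 and 0.0638 without knockout library 8). After trend removal 0 of these 7 were called higher and 1 lower by limma's test. Of 10 LSD complex partners, 4 rose and 2 fell, with Rest, Rcor1 and Rcor3 at log2 changes of 2.87, 2.57 and 1.55 (2.46, 2.24 and 1.23 after trend removal, all called both ways), while the LSD enzyme Kdm1a itself stood at 4745 in knockout and 4966 in WT (adjusted p = 0.550).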

How the data were processed

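Gonads of E13.5 male embryos were sequenced, 3 L/H-Pgds-/- and 3 WT libraries. The deposited values are a signal made by the authors, upper-quartile normalised pseudo-counts with the same upper quartile (1484 or 1485) in each library, on mm9. The submitters' processing notes list CASAVA 1.8.2 and edgeR 2.6.2; which step each served, and the annotation, is not given in the sources used here. The table counts positions from 1. Low values took many distinct sizes, for example 1961 among 2877 values under 20 in knockout library 5, so no whole reads could be recovered. Depth is therefore unknown, and neither counting intervals nor count models were used. The 6 columns were matched to samples by name, leaving 0 unmatched, and 0 pairs of libraries were identical.

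Genes reaching 10 in 3 or more libraries were kept, and log2(value + 1) was tested with limma 3.58.1 in R 4.3.3 (mean-dependent prior, two-sided, Benjamini-Hochberg adjustment over all 15116 genes, threshold 0.05), after a check on simulated data. Transcript length and GC content came from GENCODE vM21 (GRCm38), using for each gene its longest protein-coding transcript, matched by NCBI gene ID for 14449 tested genes (95.6%) and all 36 members. The trend was removed per library by natural splines (4 df for length, 4 for GC). Figures were drawn with matplotlib 3.10.9. Nothing says that the libraries came from separate litters, so p-values measure the spread between these libraries. The genes and lists were chosen with earlier results of these data known. Values in every library are given for the 5 highest and 5 lowest changes among called members with groups apart, the highest member per kilobase in each group of enzymes, and called members whose direction turned with the trend removed; up to 3 called genes are named per further list. Other named ratios and genes, Suv420h1 and Kdm4c among them, were picked after their values were seen. Alternatives were other pseudocounts (0.5, 5 and 10), filters (none, 50), scalings, library weights, priors, a threshold of 0.1, trend removal and each library left out.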

Additional observations from a re-analysis of the deposited data

How the results depend on the processing

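No paired analysis was possible because the knockout and WT libraries share no replicate number. Other pseudocounts, no filter, a filter at 50, median-of-ratios scaling and a robust prior changed the call and direction of 0 of the 36 genes. With no mean-dependent prior 18 were called higher and 0 lower, against 14.1% and 12.9% of all genes. Quantile normalisation gave 23 and 0 (17.6% and 16% of all genes), with 3 calls gained and 2 lost. Library weights gave 26 and 0 (23.5% and 24.4%), and the threshold of 0.1 gave 25 and 0 (21.6% and 22.3%). Removal of the length and GC trend gave 10 genes higher and 2 lower, and without WT library 1 as well 11 and 2. Leaving out 1 library gave 15 to 21 higher and 0 to 1 lower, the 15 without WT library 4, where 10.8% of all genes were called higher, against 12.3% to 16.5% without any other library. Among the 90 related genes, trend removal gave 13 higher and 4 lower, and without WT library 1 as well 12 and 5, and leaving out 1 library gave 23 to 33 higher and 4 to 9 lower. Over all genes, leaving out 1 library gave 10.8% to 16.5% higher and 9.24% to 16.8% lower. The related genes called lower numbered 4 with equal totals, 4 with no mean-dependent prior, 16 with library weights and 16 at a threshold of 0.1. The shares of all genes called lower also moved, to 11.2%, 12.9%, 24.4% and 22.3% in these 4 settings. The highest of the 36 genes per kilobase was the same in 5 of 9 groups of enzymes with median transcript lengths. Some log2 changes turned sign. Trend removal gave Setd7 -0.17, Nsd1 -0.29, Whsc1 -0.44, Ezh1 -0.063, Suv39h2 -0.026, Suv420h2 0.026, Kdm5b -0.14, Kdm2a -0.0095, Kdm3a -0.015 and Kdm4b 0.019. Without WT library 1 as well it gave Setd7 -0.14, Nsd1 -0.32, Whsc1 -0.44, Setd8 -0.042, Suv420h2 0.022, Kdm5b -0.15, Kdm2a -0.046 and Kdm4b 0.029. Suv39h1 had 0.082 with equal totals, 0.019 with quantile normalisation and 0.019 with library weights, and Kdm4b 0.077 with equal totals. With 1 library left out, Suv39h1 ranged from -0.051 to 0.023, Setd8 from -0.062 to 0.085, Setd3 from -0.014 to 0.086 and Kdm4b from -0.095 to 0.034. The cause was not tested. Depth is unknown, so no limit from counting can be given.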

Other observations

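The X- and Y-linked relatives of the demethylases could be set side by side in these male gonads. Kdm6a, the X-linked H3K27 demethylase, held 879, 868 and 755 in knockout libraries and 411, 490 and 423 in WT (log2 0.92, SE 0.12, limma adjusted p = 0.00135). Its Y-linked relative Uty, which has little demethylase activity, held 497, 608 and 437 in knockout and 267, 295 and 252 in WT (log2 0.91, SE 0.15, adjusted p = 0.00222). The Y-linked H3K4 demethylase Kdm5d held 802, 738 and 679 in knockout and 410, 433 and 328 in WT (log2 0.93, SE 0.13, adjusted p = 0.00179), while its X-linked relative Kdm5c averaged 2818 ± 254 in knockout and 2353 ± 166 in WT (SD, n = 3 each; log2 0.26, adjusted p = 0.0581). After trend removal for length and GC content, Kdm6a and Uty were called higher (log2 0.41 and 0.29, adjusted p = 0.0183 and 0.046), and Kdm5d and Kdm5c were not (0.39 and 0.05, adjusted p = 0.0591 and 0.655). Without WT library 1 as well, Kdm6a was still called (0.39, adjusted p = 0.0294), Kdm5d was called (0.45, adjusted p = 0.0356) and Uty was not (0.30, adjusted p = 0.0631). These 4 genes were picked after their values were seen.

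Of 9 arginine methyltransferases 1 was called higher and 2 lower, shares near the 17.3% and 17.0% over all genes. Prmt1, the main enzyme of asymmetric dimethylation, averaged 10323 ± 611 in knockout and 14102 ± 832 in WT (SD, n = 3 each; log2 -0.45, limma adjusted p = 0.00531, and -0.15 with adjusted p = 0.153 after trend removal). Carm1, which methylates H3 arginines, averaged 1833 ± 197 in knockout and 1375 ± 162 in WT (log2 0.42, adjusted p = 0.0182, and 0.58 with adjusted p = 0.00864 after trend removal), and its call was lost without WT library 4 (0.0817) or knockout library 8 (0.0624). Prmt7 had a log2 change of -0.29 (adjusted p = 0.0407, and up to 0.145 with 1 library left out, a call kept only without WT library 3).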
